A study of Mus musculus with 201 samples.

Results

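The oxidative phosphorylation subunits were read from single dentate granule cells (DGCs) and single DGC nuclei of mice. Members were chosen by symbol alone, as genes named Nduf with a subunit letter and number, Sdha to Sdhd, Uqcr, Cox4 to Cox8 or Atp5, and this rule found 88 of the 42790 symbols in the table of whole cells and the same 88 in each table of nuclei. By symbol, 37 belong to complex I, 4 to complex II, 8 to complex III, 18 to complex IV and 17 to complex V, and the other 4 are pseudogenes of Atp5k and Atp5l. The rule also asked for the genes encoded on mitochondrial DNA, but the tables used here hold 0 symbols that start with mt-, so every value below is of a nuclear-encoded gene. Ndufa4 is counted with complex I by its symbol, although the protein is also found with complex IV. Cox7a2l, Atp5s and Atp5sl carry a matching symbol without being classical subunits, and Ndufab1 and Cyc1, which are subunits, lie outside the symbols.

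Whole cells were GFP+ cells sorted after papain dissociation from Prox1-GFP mice, in which GFP marks cells that express Prox1, and had been killed 1 h after an injection of saline or of pentylenetetrazole (PTZ, 50 mg per kg), a convulsant. Nuclei were released by Dounce homogenization from C57BL/6 females of 8 weeks, either from a home cage (HC) mouse, labelled as a NeuN+/Prox1+ sort, with the stains by the methods scored after capture on the microfluidic chip that amplified them, or after a mouse had explored an unfamiliar environment (NE), sorted as PROX1+ with or without FOS protein (FOS+ and FOS−). NE nuclei were amplified in 4 conditions, made from 1 or 10 µM template-switching oligonucleotide (TSO) and 1:200 or 1:2000 ERCC spike-in. After quality control the comparisons used 38 saline-treated and 30 PTZ-treated cells, 41 FOS− and 40 FOS+ nuclei, and 23 HC nuclei. Because the labels name no animal and each group came from 1 mouse or 1 pool, each group was treated as 1 sample: values over cells are given with their spread, and no p value was computed.

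Total counts ran from 67212 to 5129240 in cells and from 63775 to 1060516 in nuclei, and the median number of genes above 1 TPM (transcripts scaled for length and for the size of the library) was 6446 in saline cells, 6020 in FOS− nuclei and 3213 in HC nuclei. Prox1, the transcription factor that defines DGCs, was above 1 TPM in 38 of 38 saline cells, 30 of 30 PTZ cells, 34 of 41 FOS− nuclei, 33 of 40 FOS+ nuclei and 14 of 23 HC nuclei. The DGC marker list of 8 genes summed to between 95.7 and 4496 TPM in cells and between 25.9 and 25657 TPM in nuclei. Of 6 interneuron markers, Gad1 was above 1 TPM in 33 saline and 21 PTZ cells and the other 5 in 0 cells, while Gad2 was in 7 FOS−, 14 FOS+ and 10 HC nuclei. The list summed to at most 795 TPM in cells and 5822 TPM in nuclei. Of 5 microglial markers, C1qa was above 1 TPM in 0 samples and Cx3cr1 in 33 FOS−, 29 FOS+ and 10 HC nuclei and 0 cells, and the list reached 27.2 TPM in cells and 4304 TPM in a FOS+ nucleus. Of 3 endothelial markers, Cldn5 was above 1 TPM in 0 samples and Pecam1 in 18 saline cells, 11 PTZ cells, 19 FOS−, 17 FOS+ and 19 HC nuclei. Mbp, a myelin gene, was above 1 TPM in 25 saline cells, 16 PTZ cells, 20 FOS−, 24 FOS+ and 3 HC nuclei. Among 5 astrocyte markers, Slc1a2 was above 1 TPM in 31 saline cells, 21 PTZ cells, 22 FOS−, 11 FOS+ and 11 HC nuclei. Gfap was above 1 TPM in 1 PTZ cell, 1 FOS− nucleus and 3 FOS+ nuclei, where it reached 573 TPM. Gja1 was above 1 TPM in 1 PTZ cell and in 1 FOS−, 1 FOS+ and 1 HC nucleus, the last at 669 TPM. The PTZ cell held Gfap (833 TPM) and Gja1 (409 TPM) beside Prox1 at 95.7 TPM. The part of all these markers in the values below was not tested.

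Oxidative phosphorylation is carried out in the inner mitochondrial membrane. Complex I (NADH dehydrogenase) and complex II (succinate dehydrogenase, also an enzyme of the citric acid cycle) feed electrons to complex III, which passes them through cytochrome c to complex IV, where oxygen is reduced. The proton gradient built by complexes I, III and IV drives ATP synthesis by complex V. Most subunits are encoded in the nucleus, translated in the cytosol and imported, and neurons depend on this pathway for most of the ATP that ion pumping and synaptic transmission consume.

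Transcription of many of these genes is known to involve NRF1, whose binding sequence is a GC-rich palindrome, and factors of the ETS family such as GABPA. RefSeq promoters on GRCm38.p6 were matched by symbol for 66 of the 88 members. In the 250 bases before the start site, an NRF1-like motif (GCGCA, any base, then GCGC), searched on both strands, was found in 13 of the 66 members (19.7%) and in 4.23% of the 27025 genes with a promoter entry. CCGGAAG, searched as an ETS-like motif on both strands, was found in 12 members (18.2%) and in 7.83% of all genes. The CCAAT box stood in 43.9% of members and 37.5% of genes, the GC box GGGCGG in 34.8% and 35.4%, and TATAAA in 9.09% and 14.3%. The promoters are shown for the member of each complex that had the highest mean TPM in saline cells among those with an entry: Ndufa4 at chr6:11907451-11907700 (minus strand), Sdha at chr13:74350241-74350490 (minus strand), Uqcr11 at chr10:80406822-80407071 (minus strand), Cox8a at chr19:7217617-7217866 (minus strand) and Atp5b at chr10:128083057-128083306 (plus strand). They are written 5′ to 3′, and capitals mark the letters that match either motif.
Ndufa4: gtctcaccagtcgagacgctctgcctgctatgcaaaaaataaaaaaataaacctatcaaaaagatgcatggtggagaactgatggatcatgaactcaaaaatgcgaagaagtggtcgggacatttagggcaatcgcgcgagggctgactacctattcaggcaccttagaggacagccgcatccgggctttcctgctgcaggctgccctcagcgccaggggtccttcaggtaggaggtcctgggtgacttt
Sdha: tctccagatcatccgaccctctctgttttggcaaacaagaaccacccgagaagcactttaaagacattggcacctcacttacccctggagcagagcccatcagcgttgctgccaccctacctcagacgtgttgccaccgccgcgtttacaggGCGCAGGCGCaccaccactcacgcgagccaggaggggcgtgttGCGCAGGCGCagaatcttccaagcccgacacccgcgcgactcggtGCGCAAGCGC
Uqcr11: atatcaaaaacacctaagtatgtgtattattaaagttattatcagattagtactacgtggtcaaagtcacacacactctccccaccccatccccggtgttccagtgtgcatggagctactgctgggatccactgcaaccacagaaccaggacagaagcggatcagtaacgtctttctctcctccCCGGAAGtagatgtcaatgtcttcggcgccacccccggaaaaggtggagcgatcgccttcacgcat
Cox8a: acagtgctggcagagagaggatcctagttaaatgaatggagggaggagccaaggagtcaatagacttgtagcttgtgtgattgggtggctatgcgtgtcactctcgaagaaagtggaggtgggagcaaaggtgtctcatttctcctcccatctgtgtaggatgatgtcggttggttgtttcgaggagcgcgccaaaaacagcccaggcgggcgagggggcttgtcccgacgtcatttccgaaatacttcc
Atp5b: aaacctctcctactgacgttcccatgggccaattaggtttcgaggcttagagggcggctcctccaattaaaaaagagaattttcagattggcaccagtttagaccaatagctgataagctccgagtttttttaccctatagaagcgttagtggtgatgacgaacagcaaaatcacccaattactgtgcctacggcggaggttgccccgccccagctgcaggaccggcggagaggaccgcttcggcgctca
Sdha, the catalytic subunit of complex II, held 3 NRF1-like matches, and Uqcr11 held 1 ETS-like match. Ndufa4, Cox8a and Atp5b held 0 matches to either motif in these windows, although Cox8a and Atp5b were among the most abundant members. Members with an NRF1-like match had a median log2 ratio of saline cells to FOS− nuclei of 1.51 (13 tested members), and those without one a median of 1.40 (49 members).

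The members held 3.15% ± 0.838 of all TPM in saline cells (SD, n = 38 cells), with a lowest value of 1.61%, a median of 3.07% and a highest value of 5.32%. In PTZ cells the share was 2.97% ± 0.860 (n = 30), from 1.11% through a median of 2.99% to 4.49%. The ranges of the treatments overlapped almost throughout. FOS− nuclei held 1.29% ± 0.621 (n = 41; lowest 0.583%, median 1.03%, highest 2.78%) and FOS+ nuclei 1.13% ± 0.690 (n = 40; lowest 0.303%, median 0.917%, highest 3.5%). HC nuclei held the smallest share, 0.856% ± 0.347 (n = 23), from 0.319% through 0.805% to 1.78%. The saline-cell median thus lay above the highest value of FOS− and HC nuclei, while single cells and single nuclei overlapped between 1.11% and 3.5%. The value of 3.5% was of 1 FOS+ nucleus with only 1373 genes above 1 TPM, and the next highest nucleus was at 2.78%. As a share of counts, in which long transcripts weigh more, the members held 1.51% of 41542569 counts in saline cells (exact 95% interval 1.503% to 1.510%) and 0.595% of 13962299 counts in FOS− nuclei (0.5906% to 0.5987%). These intervals cover counting error only.

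**Figure D1:**
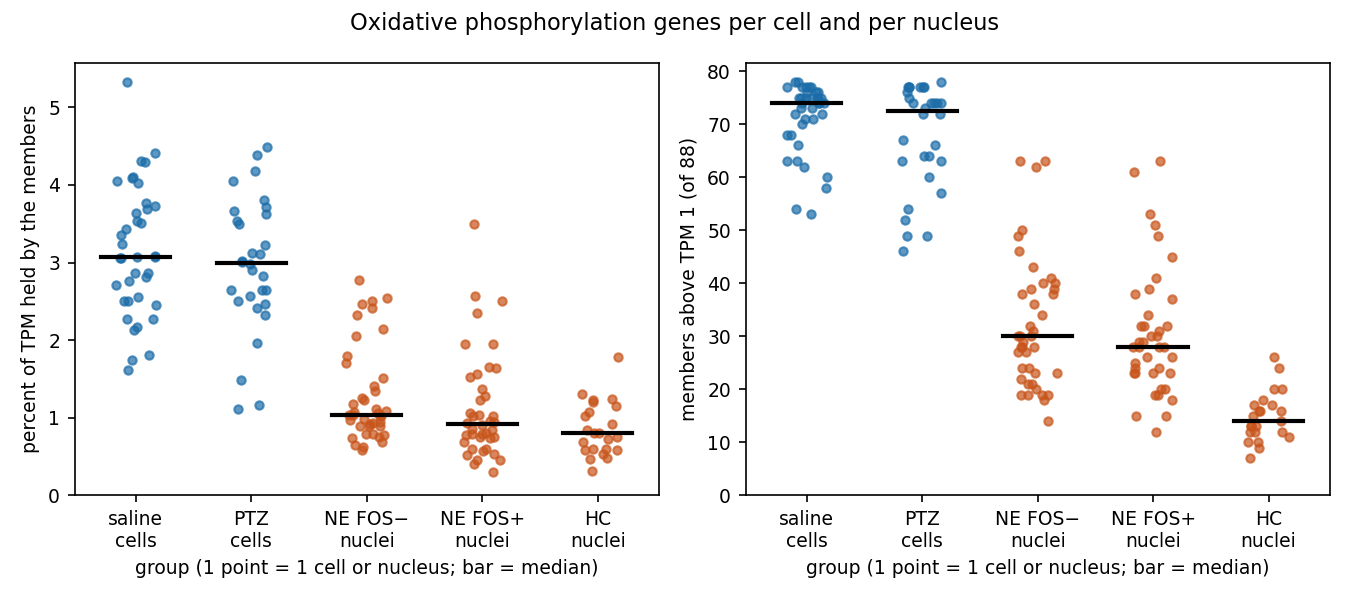
Percent of each sample's TPM held by the 88 members (left) and number of members above 1 TPM (right), with 1 point per cell (blue) or nucleus (orange) and a bar at the group median. The medians of the shares are 3.07% and 2.99% in saline and PTZ cells and 1.03%, 0.917% and 0.805% in FOS−, FOS+ and HC nuclei.

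The number of members above 1 TPM in a sample separated cells from nuclei further. It ran from 53 to 78 with a median of 74 in saline cells and from 46 to 78 with a median of 72.5 in PTZ cells. In FOS− nuclei it ran from 14 to 63 (median 30), in FOS+ nuclei from 12 to 63 (median 28) and in HC nuclei from 7 to 26 (median 14). HC nuclei did not overlap the cells. With every sample thinned to 60000 counts and at least 1 count required for a member, the medians were 71, 69.5, 26, 22.5 and 10 in the same order, which kept the order of the groups.

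In saline cells the members stood high among all genes. The median member had a mean TPM at the 97.5th percentile of the 18909 genes with a mean above 0, and 72 members were at or above the 90th. Atp5b, the catalytic beta subunit of ATP synthase, had the highest mean, 1915 ± 708 TPM (SD, n = 38), with values from 608 through a median of 1802 to 3680. Atp5a1, the alpha subunit that alternates with beta in the catalytic head, followed within complex V at 820 ± 335 TPM. In complex IV, Cox4i1, the ubiquitous form of subunit 4, had 1441 ± 460 TPM and Cox8a, a small membrane subunit, 1292 ± 522. Ndufa4 had 1150 ± 431 TPM and Ndufb9, an accessory subunit of the complex I membrane arm, 596 ± 364. In complex III the leading members were Uqcr11, with 592 ± 367 TPM, and Uqcrh, the hinge protein next to cytochrome c1, with 420 ± 263. Complex II was lowest: Sdha had 372 ± 220 TPM and the iron-sulfur subunit Sdhb 336 ± 259. The SDs of most neighbouring members in this order overlapped. The median of the members' mean TPM was 544 in complex IV, 461 in complex V, 375 in complex III, 270 in complex I and 253 in complex II.

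The abundant members were also among the steadiest genes from cell to cell. The coefficient of variation (SD over mean) of Cox4i1 across saline cells was 0.319, and only 0.0176% of the 5683 genes above 1 TPM in at least 50% of these cells had a lower one. It was 0.370 for Atp5b, 0.375 for Ndufa4, 0.391 for Cox6c and 0.404 for Cox8a. The median was 0.633 over 75 members and 1.15 over the 5683 genes. Those genes were not matched to the members in level, so the part of high abundance in this difference was not tested. At the other end stood Atp5sl at 1.21 and the membrane anchors of complex II, Sdhc at 0.876 and Sdhd at 0.875.

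Subunits with tissue-specific isoforms were read almost entirely as the ubiquitous form. Cox4i2, the form of subunit 4 known from lung, the testis isoform Cox8c, the muscle isoform Cox8b and Ndufa4l2 were at 0 TPM in all 172 samples. By counting alone, with cells and nuclei pooled, this allows a detected share of up to 1.74% of samples. Transcripts present but not read are not covered by that limit. In FOS− nuclei 58% of the values of the 77 members compared below were at or below 1 TPM. Cox6a1 had 853 ± 380 TPM in saline cells, whereas the muscle form Cox6a2 was at 0 in 38 of 38 saline cells and above 1 TPM in 3 of 30 PTZ cells. Cox6b1 had 721 ± 396 TPM, and Cox6b2, known from testis, was likewise at 0 in saline cells and above 1 TPM in 3 PTZ cells. Cox7a2 had 426 ± 193 TPM and Cox7a2l 279 ± 200, against 1.16 ± 5.21 for the muscle form Cox7a1, which was above 1 TPM in 2 saline and 2 PTZ cells. Atp5g1, Atp5g2 and Atp5g3 encode the same mature c subunit of the ATP synthase rotor with different import sequences, and all were present in saline cells, at 603 ± 387, 345 ± 213 and 517 ± 353 TPM. In FOS− nuclei the order was different, with 341 ± 688 TPM for Atp5g3, 229 ± 465 for Atp5g1 and 23.4 ± 62.6 for Atp5g2.

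In nuclei most members were read in a minority of samples, and at substantial levels where they were read. Over the 77 members used to compare cells with nuclei, 7.83% of the 2926 single values in saline cells were at or below 1 TPM, against 58% of 3157 values in FOS− nuclei, 60.4% in FOS+ nuclei and 80.7% in HC nuclei. Of the values above 1 TPM, 88.7% exceeded 100 TPM in saline cells and 62.5% did in FOS− nuclei. Cox7c, a small complex IV subunit, was above 1 TPM in 24 of 41 FOS− nuclei with a median of 535 TPM in those nuclei, and in 38 of 38 saline cells with a median of 413 TPM. Cox7b, also of complex IV, was above 1 TPM in 31 FOS− nuclei (75.6%, exact 95% interval 59.7% to 87.6%) with a median of 324 TPM there, and 230 TPM in the cells. Among 76 members above 1 TPM in at least 3 FOS− nuclei, the median level where detected was within 2-fold of that in saline cells for 37, at least 2-fold lower for 38 and at least 2-fold higher for 1.

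The members read in the most nuclei were Cox4i1, in 39 of 41 FOS− and 40 of 40 FOS+ nuclei, Ndufb2 (38 and 34), Atp5b (36 and 37), Ndufs1 (35 and 33) and Atp5g1 (34 and 37). In HC nuclei Atp5g1 alone was above 1 TPM in 23 of 23. Its median there was 24.6 TPM and its lowest value 10.5. The highest value, 3285 TPM, was of 1 nucleus that held 75.9% of its summed TPM. Atp5g1 (chr11:96068852-96075670, GRCm38) has an annotated transcript of 4715 nt, and 14.8% of its 31-mers also occur in transcripts of 3019 other genes. Ndufc1 shares 31-mers with 1623 genes, Sdhc with 375 and Atp5h with 233, the only other members above 100. Ndufc1 was above 1 TPM in 24 FOS− nuclei with a median of 41.2 TPM where detected, and 285 in saline cells, and Sdhc in 17 with a median of 5 TPM, against 212 in saline cells. Atp5h did not have this form, with a median of 283 TPM in 24 FOS− nuclei. Ndufb5 was above 1 TPM in 25 FOS− nuclei at a median of 9.49 TPM, and 17.7% of its 31-mers lie in Mrpl47. Low values across most nuclei were also seen for the microglial gene Cx3cr1, which was above 1 TPM in 33 FOS− nuclei at a median of 5.13 TPM and in 0 cells. The part of shared sequence in these low values was not tested.

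**Figure D2:**
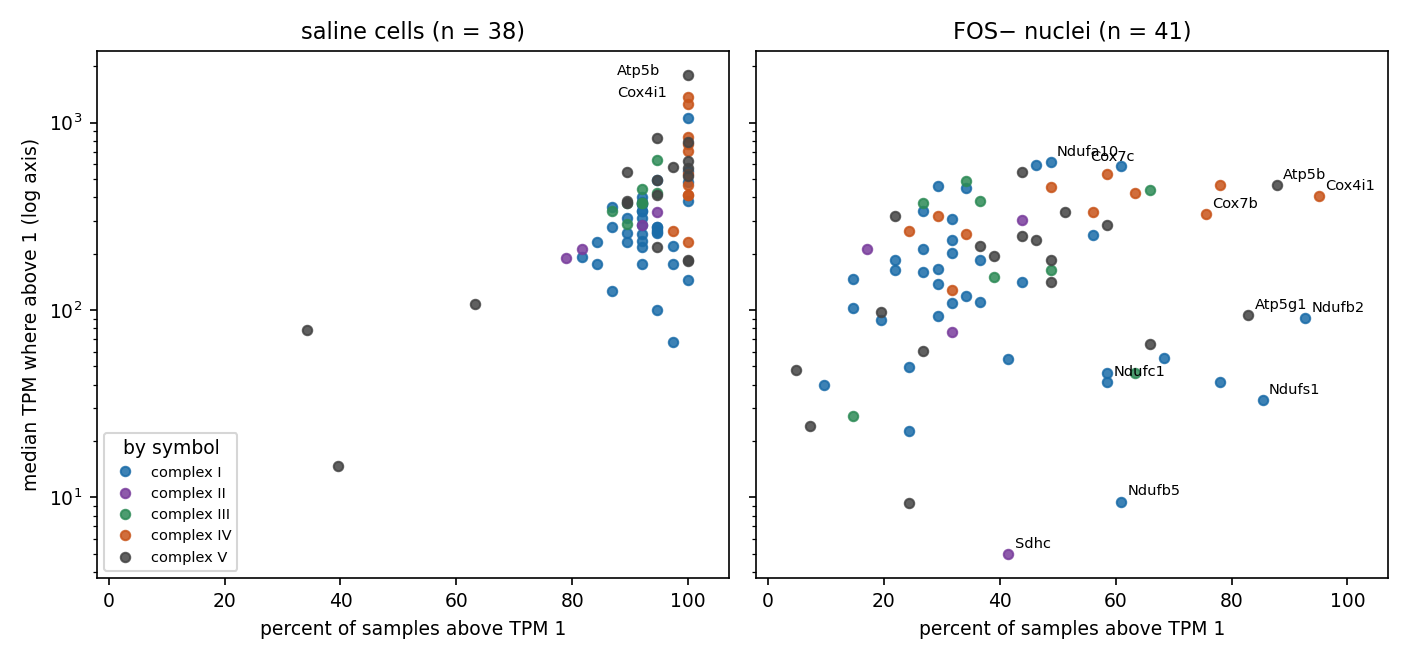
Each point is 1 of 77 members, placed by the percent of samples in which it was above 1 TPM (horizontal) and by its median TPM in those samples (vertical, log axis), for saline cells (left) and FOS− nuclei (right). Members crowd at the right edge in saline cells and spread over the whole width in FOS− nuclei, where Cox7c keeps a median of 535 TPM at 24 of 41 nuclei and Ndufb5 and Sdhc lie at 9.49 and 5 TPM.

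The comparison of whole cells with nuclei asked how much of each transcript is seen when the cytoplasm is left out. It set the mean TPM of saline cells against that of FOS− nuclei over the 77 members above 1 TPM in at least 10 of the 79 samples. Both groups counted toward the 10, so a member read in 10 cells entered whatever the nuclei showed. Of the 77 members, 53 (68.8%) were at least 2-fold higher in cells and 0 at least 2-fold lower. Over the 13580 genes compared, 24.2% were at least 2-fold higher and 41.9% at least 2-fold lower. The median log2 ratio was 1.43 over members and -0.51 over all genes. With no filter on low values the counts were again 53 and 0 of 77, with 24.3% and 42.9% of genes. Against HC nuclei, 63 members (81.8%) were at least 2-fold higher and 0 lower, with 49.8% and 27.1% of 10326 genes. That count includes 5 members at 0 TPM in all HC nuclei, among them Cox6b1 and Sdhb. Immediate early genes were also far higher in saline cells, Arc with 465 ± 879 TPM against 0.0839 ± 0.341, and for 6 of 6 genes. TPM values come from tables normalized separately, and mouse strain, dissociation, sort and read layout differ between cells and nuclei, so these cannot be told apart from the compartment.

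The largest ratios ran from 8.10-fold to 21.7-fold. Ndufs6, an accessory subunit of complex I, had 238 ± 184 TPM in saline cells and 11.2 ± 58.4 in FOS− nuclei, a 21.3-fold ratio. It was above 1 TPM in 33 of 38 cells and 4 of 41 nuclei, and 1 nucleus held 81.1% of its summed TPM. Sdhc was 17.5-fold higher in cells (169 ± 148 against 9.64 ± 33.7 TPM), Atp5g2 14.8-fold, the Rieske iron-sulfur protein Uqcrfs1 11.1-fold, Ndufa1 10.8-fold, Ndufb8 9.82-fold and Atp5l 8.10-fold. Atp5s was 21.7-fold higher, from 37.1 ± 68.2 against 1.71 ± 6.53 TPM. Uqcrfs1, Atp5g2, Ndufb8 and Ndufa1 were above 1 TPM in 6, 8, 8 and 9 FOS− nuclei. With Atp5s (3 nuclei) and Ndufs6, they reached the limit of 10 samples only through the cells. Single nuclei weighed on these ratios. Without the highest sample of each gene in each group the ratio was 104-fold for Ndufs6, 39-fold for Uqcrfs1, 34-fold for Atp5s, 30.9-fold for Sdhc and 17.3-fold for Ndufb8, and between 9.91-fold and 20-fold for Atp5l, Ndufa1 and Atp5g2. Against HC nuclei, however, Ndufs6 and Ndufb8 had ratios of 0.937 and 0.808, since single HC nuclei held 95.8% and 74.3% of their summed TPM.

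A few members stood at the other end, chosen here because their ratios were the smallest. Cox7b had 263 ± 139 TPM in saline cells and 369 ± 582 in FOS− nuclei, a ratio of 0.714. Ndufa10, an accessory subunit of complex I, had a ratio of 0.722, Ndufb7 of 0.870, the small complex III subunit Uqcr10 of 0.966 and Cox7c of 1.06. Their SDs in nuclei exceeded their means, and the ratios of Ndufb7 and Uqcr10 passed above 1 (1.12 for each) without the highest sample of each group. Against HC nuclei, Uqcr10 and Ndufa10 had log2 ratios of 5.54 and 3.68, whereas Cox7b had 0.05, or 1.05 without the highest sample of each group, since 1 HC nucleus held 53.6% of its summed TPM. By complex, the share at least 2-fold higher in saline cells than in FOS− nuclei was 24 of 36 for complex I, 3 of 4 for complex II, 5 of 8 for complex III, 7 of 11 for complex IV and 13 of 17 for complex V. Over all genes that share was 24.2%. In complex I the 7 core subunits, which carry the redox centres, and the 29 accessory ones had medians of 1.43 and 1.39.

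**Figure D3:**
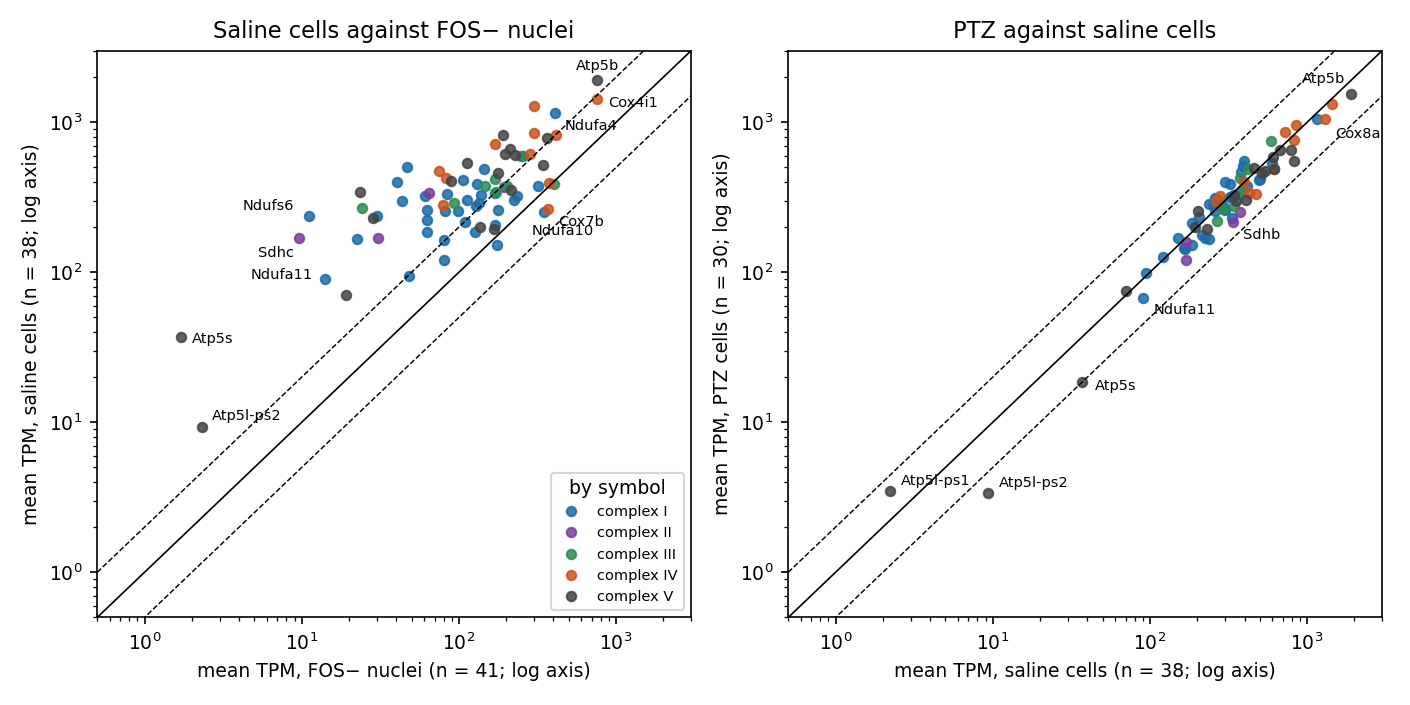
Mean TPM of each member on log axes, for saline cells against FOS− nuclei (left, 77 members) and PTZ against saline cells (right, 78 members), coloured by complex, with lines at equality (solid) and at 2-fold (dashed). On the left 53 members lie above the upper 2-fold line, and on the right 1, Atp5l-ps2, lies outside the 2-fold lines.

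Gene structure did not order the members. Spearman's rho between the log2 ratio of saline cells to FOS− nuclei and the genomic span was 0.09 over 75 members and 0.00 over 12387 genes, and with transcript length it was -0.02 and -0.04. These are correlations across genes, which are not independent replicates. Members are compact, with a median span of 7674 bp and a median longest transcript of 908 nt, against 21775 bp and 3044 nt over all genes compared. Among genes with a span under 5000 bp the median log2 ratio was 1.28 for 24 members and -1.53 for 2273 genes, between 5000 and 10000 bp it was 1.67 for 27 members and 0.19 for 1515 genes, and over 10000 bp it was 1.17 for 24 members and -0.34 for 8599 genes. The share at least 2-fold higher in cells was 62.5%, 85.2% and 54.2% of members in these bins, and 25.8%, 35% and 23.0% of genes.

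PTZ-treated and saline-treated cells were compared to ask whether these transcripts stood at other levels 1 h after the convulsant. Among 78 members, 0 were at least 2-fold higher in PTZ cells and 1 was at least 2-fold lower, where 10.0% and 12.1% of 11455 genes were. The median log2 ratio was -0.12 over members and -0.09 over all genes. By mean log2(TPM + 1), 14 members (17.9%) and 10.2% of genes were lower by at least 1. The 1 member past 2-fold was the pseudogene Atp5l-ps2, with 3.37 ± 7.45 TPM in PTZ cells and 9.37 ± 17.6 in saline cells, whose reads are shared with Atp5l. Immediate early genes, which seizures are known to induce, were not higher in PTZ cells: 0 of 6 had a ratio above equality and 3 of 6 were at least 2-fold lower, with 1797 ± 2923 TPM of Fos in PTZ and 2665 ± 3493 in saline cells. Cells of each treatment came from their own mice and carry a label suffix of their own, so these and the treatment cannot be told apart.

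Among protein-coding members the ratios were small beside the spread between cells. The lowest was Atp5s, with 18.7 ± 45.6 TPM in PTZ and 37.1 ± 68.2 in saline cells, a ratio of 0.503. Among complexes, complex II lay lowest, with 4 of 4 members below equality and a median log2 ratio of -0.53. Over all genes, 6343 of 11455 were below equality and the median was -0.09. Sdhb had 216 ± 193 TPM in PTZ cells and 336 ± 259 in saline cells, a ratio of 0.642, and was above 1 TPM in 22 of 30 PTZ cells and 35 of 38 saline cells. Sdha had 251 ± 140 against 372 ± 220 TPM, a ratio of 0.674, and Atp5a1 556 ± 306 against 820 ± 335, a ratio of 0.678. Ndufb8 was highest among protein-coding members at a ratio of 1.39 (553 ± 524 against 399 ± 256 TPM), falling to 1.21 without the highest cell of each group. The most abundant members were close to equality, with log2 ratios of -0.30 for Atp5b, -0.12 for Cox4i1, -0.29 for Cox8a and -0.12 for Ndufa4. Cells of the groups overlapped for every one of these genes.

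FOS+ and FOS− nuclei came from the same mouse and isolation pool, and the comparison asked whether recent activity in a DGC went with other nuclear levels. Before its own comparison the study set aside some nuclei that stained for FOS but resembled FOS− nuclei in expression. Here they were not removed, so the FOS+ group is defined by the protein stain alone. Of 74 members, 5 (6.76%) were at least 2-fold higher in FOS+ nuclei and 13 (17.6%) at least 2-fold lower, where 13.9% and 24.3% of 13214 genes were. Both shares of the members were below those of all genes, but not on every scale: 31.1% of members and 25.3% of genes were at least 2-fold lower by summed counts, and by mean log2(TPM + 1) 10.8% and 7.07% were higher and 13.5% and 9.62% lower. The median log2 ratio was -0.31 over members and -0.23 over all genes. Without the nuclei amplified with 1 µM TSO and 1:2000 ERCC, the median over members was 0.01 and that over all genes -0.21. The immediate early genes, by contrast, were higher in FOS+ nuclei for 6 of 6, Arc among them with 557 ± 566 against 0.0839 ± 0.341 TPM; FOS protein was the basis of the sort.

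Most members past 2-fold were read in a minority of nuclei. Ndufb7, an accessory subunit of the complex I membrane arm, had 17.5 ± 63.3 TPM in FOS+ and 175 ± 473 in FOS− nuclei, a 9.98-fold ratio, and was above 1 TPM in 13 of 40 and 17 of 41. Ndufa8 had 23.1 ± 95.5 and 169 ± 523 TPM, 7.30-fold, in 4 and 11 nuclei. Medians were 0 or under 1 TPM in both sorts for these genes, and the ranges overlapped. The next were Ndufb6 (5.40-fold lower in FOS+), Ndufa9 (4.64-fold), Sdhb (4.08-fold), Ndufb9 (3.47-fold), Ndufb5 (2.95-fold) and Cox7a2l (2.83-fold). Ndufb5 was above 1 TPM in 25 FOS− and 19 FOS+ nuclei. Without the highest nucleus of each sort, Ndufa9 was 12.9-fold lower and Atp5sl, 2.27-fold lower over all nuclei, 16.6-fold lower. In the other direction Ndufs6 had 79.7 ± 249 TPM in FOS+ and 11.2 ± 58.4 in FOS− nuclei, a 7.12-fold ratio, in 6 and 4 nuclei, and 22.8-fold without the highest nucleus of each sort. Uqcrfs1 was 4.90-fold higher, but 1 FOS+ nucleus held 91.4% of its summed TPM, and without the highest nucleus of each sort the ratio was 1.65. Ndufb8 (3.28-fold), Ndufa7 (3.12-fold) and Ndufa1 (2.63-fold) completed the 5.

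The 4 amplification conditions served as repeats within the pool. Ndufb8 was the 1 member (1.35%) with a higher mean TPM in FOS+ nuclei in all 4 conditions, where 6.90% of genes were, and 6 members (8.11%) had a lower mean in all 4, where 12.4% of genes were: Atp5e, Atp5h, Atp5sl, Ndufa8, Ndufb7 and Uqcr10. Of these Ndufa8, Ndufb7 and Atp5sl were also at least 2-fold lower over all nuclei (4.05%, against 8.63% of genes), and Ndufb8 at least 2-fold higher (1.35%, against 4.88%). Among members with a value in both sorts, the median log2 ratio within a condition was -0.09 and -0.11 at an ERCC dilution of 1:200 with 1 and 10 µM TSO, and -0.52 and -0.20 at 1:2000. Over all genes it was -0.18 and -0.06 at 1:200, and -0.28 and -0.36 at 1:2000, in the same order. By complex, 2 of 4 complex II members were at least 2-fold lower in FOS+ nuclei, where 24.3% of all genes were. For Sdhb, 1 of these, a single FOS− nucleus held 49.1% of the summed TPM of that sort. Complex IV had 0 of 11 at least 2-fold higher, where 13.9% of genes were. Its median log2 ratio was 0.48, and that of all genes -0.23. Cox5a, which binds outside the catalytic core of complex IV, was read above 1 TPM by 52.5% of FOS+ nuclei (exact 95% bounds 36.1% and 68.5%) and by 24.4% of FOS− nuclei (12.4% and 40.3%). Cox7b had the opposite order, 52.5% of FOS+ and 75.6% of FOS− nuclei.

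**Figure D4:**
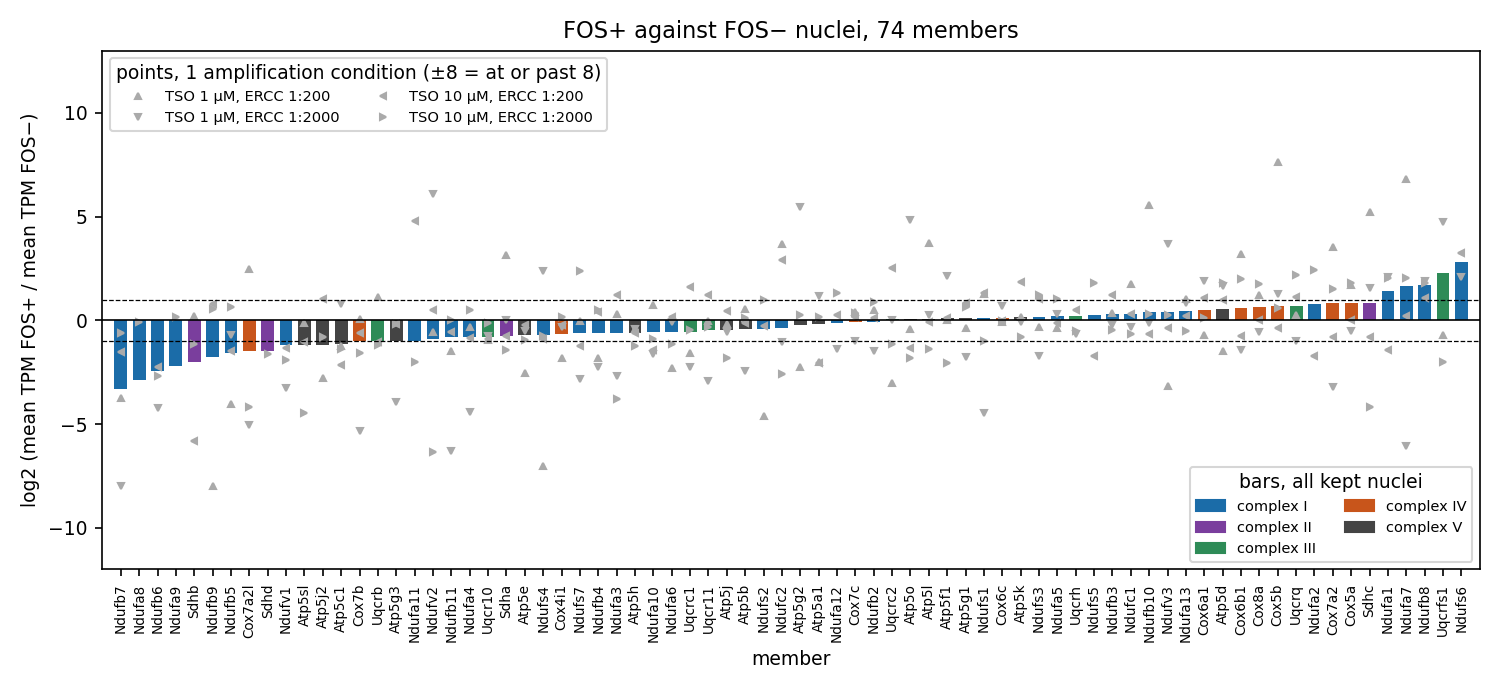
Bars show the log2 ratio of mean TPM in FOS+ (n = 40) to FOS− (n = 41) nuclei for 74 members, sorted and coloured by complex; grey triangles show the same ratio within each amplification condition, drawn only where both sorts had a mean above 0, and dashed lines mark 2-fold. The bars run from -3.32 (Ndufb7) to 2.83 (Ndufs6), and 61 of the 74 members have at least 1 triangle on each side of 0.

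Genes that work with the subunits are given beside the 24.2% of all genes at least 2-fold higher in saline cells than in FOS− nuclei, the 41.9% at least 2-fold lower and their median log2 ratio of -0.51. Of 38 assembly factors, which build the complexes without remaining in them, 8 were at least 2-fold higher in saline cells than in FOS− nuclei and 9 at least 2-fold lower, with a median log2 ratio of 0.02, so the share higher (21.1%) was near that of all genes. The complex I assembly factor Nubpl had a log2 ratio of -4.54 and Cox11 one of -2.32, while Uqcc1 had 2.19. Ndufaf3, also a complex I assembly factor, had 100 ± 96.1 TPM in saline cells and 103 ± 354 in FOS− nuclei, and was above 1 TPM in 7 FOS− nuclei and 1 FOS+ nucleus. Citric acid cycle genes were nearer to the subunits, with 10 of 15 at least 2-fold higher and a median of 1.31, and so were electron carriers and exchangers, with 8 of 11 and a median of 1.80. Glycolytic genes had 13 of 15 and a median of 2.61. Cytosolic ribosomal proteins had 64 of 83 and a median of 1.56, mitochondrial ribosomal proteins 34 of 77 and a median of 0.72. Regulators of mitochondrial biogenesis had 3 of 13 higher (23.1%, near all genes) and 2 lower, with a median of -0.21. Of 6 nuclear long noncoding RNAs, 4 were at least 2-fold lower in cells, including Malat1, with 17648 ± 8436 TPM in saline cells and 84694 ± 31414 in FOS− nuclei. Of the 5 subunits and ATP synthase factors outside the symbol rule, 4 were higher, Cyc1 among them at a log2 ratio of 1.32.

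Between FOS+ and FOS− nuclei, 9 of 32 assembly factors were at least 2-fold lower in FOS+ (28.1%) and 0 higher, and 19 of 58 mitochondrial ribosomal protein genes were lower (32.8%) and 4 higher, against 24.3% and 13.9% of genes. The sum of the mitochondrial ribosomal proteins was 0.300% ± 0.146 of TPM in FOS+ and 0.502% ± 0.192 in FOS− nuclei. Citric acid cycle genes had 4 of 15 lower and 0 higher, and glycolytic genes 2 lower and 1 higher of 15. Slc25a4, the exchanger of ADP and ATP across the inner membrane, had 77 ± 146 TPM in FOS+ and 212 ± 396 in FOS− nuclei and was lower in 4 of 4 conditions. Between PTZ and saline cells, 10.0% of all genes were at least 2-fold higher and 12.1% at least 2-fold lower. Citric acid cycle genes had 0 of 15 past 2-fold, and regulators of mitochondrial biogenesis 0 of 13 higher and 3 lower. Ppargc1a, the coactivator of mitochondrial biogenesis, had 1.34 TPM in PTZ and 8.41 ± 25.4 in saline cells, a low level with an SD above its mean.

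The summed shares of complexes I, IV and V had higher rank correlations across cells than across nuclei. Spearman's rho between the summed share of complex I and that of complex V was 0.87 across 38 saline cells and 0.82 across 30 PTZ cells, and 0.23, 0.60 and -0.04 across FOS−, FOS+ and HC nuclei. For complexes I and IV it was 0.70, 0.77, 0.42, 0.54 and -0.21 in the same order. For complexes IV and V it was 0.74, 0.73, 0.28, 0.48 and -0.06. Between single members above 1 TPM in at least 50% of samples, the median rho was 0.22 over 2775 pairs in saline cells, of which 88.5% were positive, and 0.06 over 231 pairs in FOS− nuclei. Pairs of cytosolic ribosomal protein genes had medians of 0.21 and 0.06. The samples share depth and the scaling to TPM: rho of the members' share with the number of genes above 1 TPM was 0.68 in saline cells and 0.12 in FOS− nuclei, and with the share of cytosolic ribosomal proteins 0.40 and 0.60.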

How the data were processed

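Single whole cells, NE nuclei and HC nuclei were measured by RNA-seq (Smart-seq2, or a microfluidic chip for HC). The authors trimmed reads and aligned them to mm10 (GRCm38) with RSEM, and the submitters' notes name Bowtie 1.0.0. Reads were paired-end 100 bases for cells and HC nuclei and single-end 50 bases for NE nuclei. The deposited tables hold, for 3 sets of samples, expected counts (estimated counts per gene, not normalized) and TPM, which the authors computed within each sample. TPM corrects for transcript length and depth, so a fall in 1 gene raises others. RSEM divides reads between similar genes, and a library without strand cannot separate overlapping ones. Identical columns were looked for, with 0 pairs found.

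Samples were grouped by their labels. The study's methods describe a pool of 2 mice per treatment for cells, and the series text a single mouse. Samples with a total count over 50000 and no fewer genes above 1 TPM than 2 SD under their table's mean entered the comparisons. Among whole cells this left 38 of 47 (saline) and 30 of 35 (PTZ), and among NE nuclei 41 of 48 (FOS−) and 40 of 48 (FOS+). The 23 HC nuclei were used without this filter, which 1 of them would not have passed. A count of 3 is between 0.0000585% and 0.00470% of a kept sample's total. Reads carry no molecular identifiers, so intervals cover counting error only.

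Ratios of mean TPM were taken over genes above 1 TPM in at least 10 samples compared, both groups counted together, with 2-fold as the limit. Each group is 1 mouse or pool, so no test was run. Shares have exact Clopper-Pearson 95% intervals. The ratio was tested on simulated data with known folds for PTZ against saline and FOS+ against FOS−, not for cells against nuclei. Positions and 31-mers come from GENCODE M21 (GRCm38, the authors' build), in which 86 of 88 members had 1 position. Members named are those with the 8 largest and 8 smallest ratios past 2-fold per comparison, the 2 highest per complex, paralogue families, and at most 3 each way from other lists; other genes named were chosen after their values were seen. The members and lists were chosen with earlier results of these data known. Python 3 with pandas, NumPy and SciPy was used. Alternatives covered sample filters, count-based ratios, log scales, amplification conditions and thinning to 60000 counts.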

Additional observations from a re-analysis of the deposited data

How the results depend on the processing

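No paired analysis was possible because the labels give no replicate number that is shared between groups; FOS+ and FOS− nuclei share only the 4 amplification conditions, within which values are given. The excess of saline cells over FOS− nuclei kept its direction under every alternative run for it. Its median log2 ratio over members, 1.43 as reported, was 4.69 from means of log2(TPM + 1), 2.93 from log2(TPM + 10) and 2.72 against HC nuclei, or 2.47 without the 5 members at 0 there, with 0.19, 0.05 and 0.98 over all genes. For FOS+ against FOS−, the median of -0.31 was 0.16 in the 1 µM, 1:200 nuclei alone and -0.87, -0.13 and -0.26 in the other conditions alone, and 0.01 without the 1 µM, 1:2000 nuclei. Over all genes the median of -0.23 was -0.05, -0.45, -0.02, -0.39 and -0.21 in the same order. Values from 1 condition alone, here and in the counts below, include members with a mean of 0 in 1 sort. In the 1 µM, 1:200 nuclei the median of 0.16 covers 73 members. Over the 60 with a value in both sorts it was -0.09, so its sign depends on the members at 0. The count at least 2-fold higher, 5 of 74 as reported, was 8 (10.8%, all genes 7.07%) and 0 (all genes 2.69%) on the log scales with 1 and 10 added. It was 28 (38.4%, all genes 33.1%) and 16 (21.6%, 24.2%) in the 1:200 and 1:2000 nuclei at 1 µM alone, 18 (24.3%, 26.3%) and 15 (20.3%, 18.7%) at 10 µM, and 9 or 10 without the 1 µM, 1:2000 or the 10 µM, 1:200 nuclei (12.2% or 13.5%, all genes 16% in both). The count lower, 13 as reported, was 23 (31.1%, all genes 25.3%) from summed counts and 3 (4.05%, 2.01%) with 10 added. It was 35 (47.3%, 40.2%) and 24 (32.4%, 34.6%) in the 1:2000 nuclei at 1 and 10 µM alone and 20 (27%, 29.9%) without the 10 µM, 1:200 nuclei. For PTZ against saline, the median of -0.12 was 0.04 from summed counts, with -0.03 over all genes. The counts of 0 higher and 1 lower of 78 were 7 (8.97%, all genes 13.6%) and 4 (5.13%, 14.3%) with all cells of the tables, and the lower count was 14 (17.9%, 10.2%) and 2 (2.56%, 1.7%) with 1 and 10 added and 2 (2.56%, 16.8%) without the highest cell of each gene. As a percent of summed counts the members held 1.51 in saline cells, 1.52 in PTZ cells, 0.595 in FOS− nuclei and 0.352 in HC nuclei, against 3.15, 2.97, 1.29 and 0.856 of TPM. Chosen after seeing the data, leaving out the PTZ cell with Gfap and Gja1 gave 0 higher, 1 lower and a median of -0.11, and leaving out the HC nucleus with few genes gave a share of 0.852%. Rescaling TPM only set each sample to the same sum, since no mt- genes were there to leave out, and gave the same counts. The cause of these differences was not tested. At the lowest depths 3 counts were 0.00470% of a nucleus's total and 0.00446% of a cell's.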
